A study of Rattus norvegicus with 6 samples.

Results

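The genes described here encode the subunits of the receptors for glutamate and gamma-aminobutyric acid (GABA), the main excitatory and inhibitory transmitters of the brain. They were the genes whose probe set carried exactly 1 annotated symbol beginning with Gria, Grik, Grin (followed by 1, 2 or 3), Grm (followed by a digit), Gabra, Gabrb, Gabrg, Gabrd or Gabbr. This gave 35 of 14497 named genes, and each was measured by 1 probe set. Of the 35, 33 reached the 40th percentile of the array on at least 1 array and were tested, and 32 of these reached it on all 6 arrays. The 2 genes left untested were Gabra6, whose subunit is typical of cerebellar granule cells, and Grin3b, an NMDA receptor subunit. Gabra6 lay between 4.77 and 5.12 on the log2 scale, below the lower quartile of every array, and Grin3b lay between 5.80 and 6.36.

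The RNA came from brain tissue of male Sprague-Dawley rats, either naive or after a stroke made when a hook raised the middle cerebral artery and stopped its flow for a while. Young rats were 3 to 4 months old after stroke and 3 to 5 months when naive, and aged rats were 19 to 20 and 18 to 20 months old. Tissue after stroke was the area around the infarct at 3 d or 14 d, whereas naive tissue is labelled only as healthy brain and its region is not named. Each of the 6 groups was 1 array of 1 RNA pool, from 15 naive rats of each age, 19 young stroke rats at each time or 23 aged ones. No group had a replicate array, and no sham-operated group is among the 6. The 2 ages served as the repeats of each condition in the fit, errors below are its standard errors with 2 arrays per condition, and p-values measure only the spread between these pools. The number of arrays limits the precision. Array medians lay between 7.09 and 7.15, and the arrays correlated with each other at 0.962 to 0.995 over 28826 probe sets.

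Glutamate acts on channels of the AMPA, kainate and NMDA types, each a tetramer of subunits from its own gene family, and on metabotropic receptors that signal through G proteins. GABA acts on GABA-A receptors, chloride channels of 5 subunits, and on GABA-B receptors, which signal through G proteins as a pair of unlike subunits. Which subunits a neuron makes sets how long its channels open, how sensitive they are and whether they sit at or outside the synapse. In stroke, excess glutamate acting on NMDA and AMPA receptors is a known route of neuronal injury, and tonic inhibition through GABA-A receptors outside the synapse is a known influence on recovery around the infarct. Expression arrays read the RNA of these genes and not the receptor protein, its place in the membrane, its splicing or its editing.

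Many receptor subunit genes were lower around the infarct than in naive tissue, and none was higher. At 3 d 16 of the 33 tested genes were lower than in naive tissue and 0 were higher, where 7.87% of all 10947 tested genes were lower and 14.4% higher. At 14 d 18 were lower and 0 higher, against a background of 11.4% lower and 13.6% higher. The same 14 genes were lower at both times, Gabrg1 and Grm5 were lower at 3 d alone, and Gabbr1, Grik3, Grin2a and Grm8 at 14 d alone. The median change of the 33 genes was -0.42 on the log2 scale at both times, from -0.89 to -0.04 at 3 d and from -0.998 to 0.05 at 14 d. Over all tested genes the median was -0.03 at 3 d and -0.06 at 14 d. Both naive arrays lay above all 4 stroke arrays for 29 of the 33 genes, as they did for 28.8% of all tested genes, and the exceptions were Grik3, Grik5, Grm2 and Grm6. Fewer receptor-bearing cells and less receptor RNA per cell cannot be told apart in such tissue. Nor can either be told apart from a difference in brain region or in the share of other cells, whose markers are given below.

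**Figure D1:**
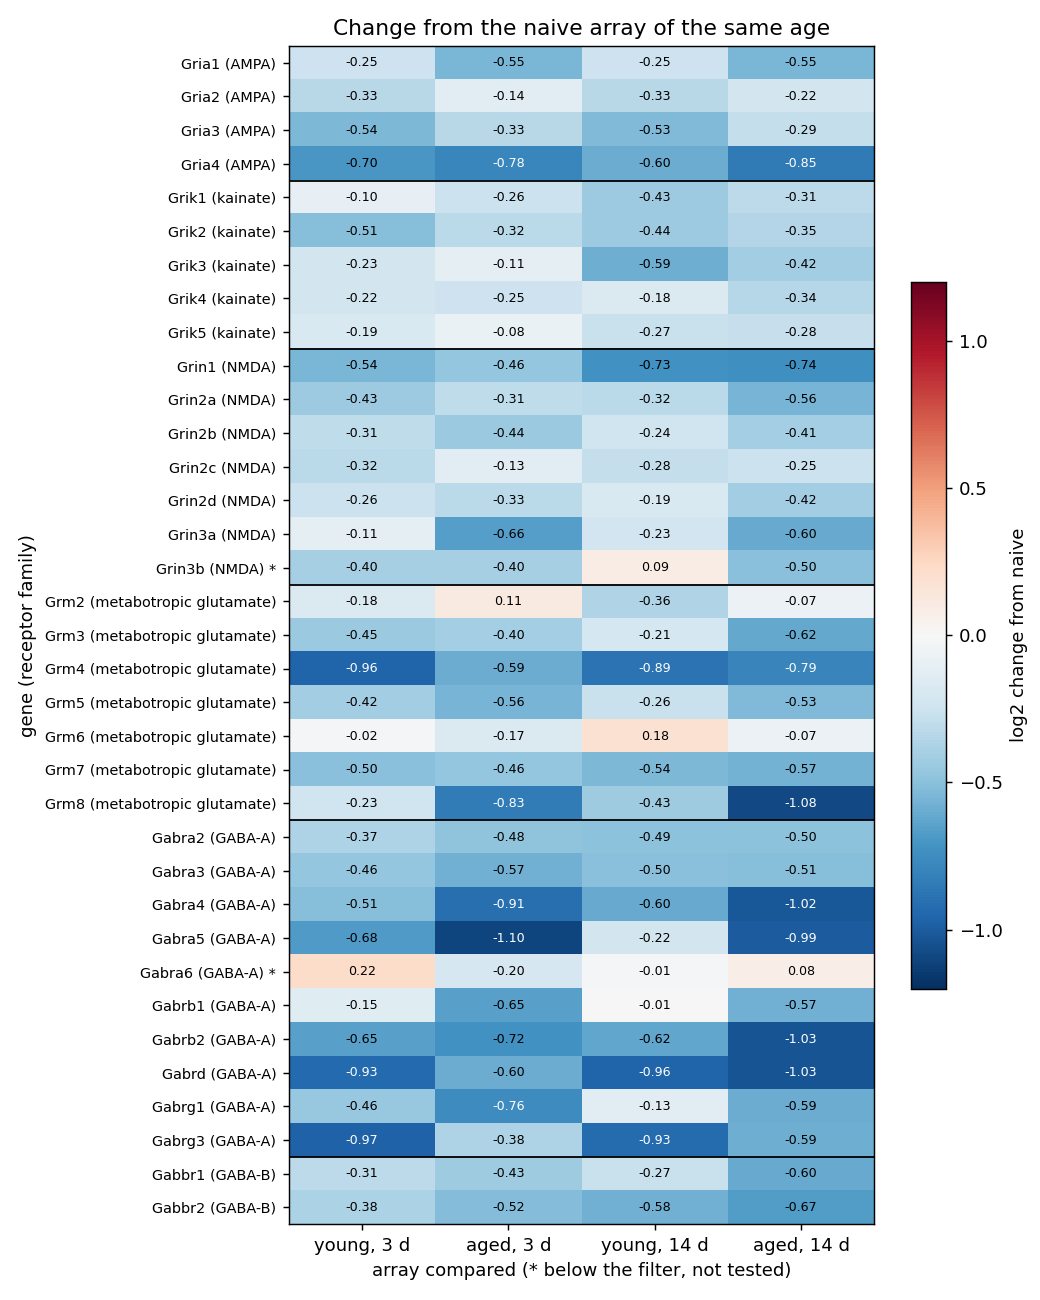
Heat map of the log2 change of all 35 receptor genes (rows, grouped by family) on each stroke array from the naive array of the same age (columns). Nearly every cell is blue (lower): the deepest falls are those of Gabra5, Grm8, Gabra4, Gabrb2 and Gabrd on aged arrays, and the few red cells belong to Grm2, Grm6 and the 2 untested genes.

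The counts depended on single arrays, at 3 d on both the naive and the 3 d arrays and at 14 d above all on the 2 naive ones. At 3 d the count of lower genes dropped to 2 when the aged naive array was left out, to 5 for the young naive, 3 for the young 3 d and 6 for the aged 3 d array, and it was 23 without either 14 d array. At 14 d it was 3 with the aged naive array left out and 6 with the young naive one, and between 12 and 20 for the other 4 arrays. No gene with a call at either time changed direction under any of 13 settings, but many of these could not change it. Other filters, variances, the mean of probe sets and leaving out the age term left each fitted change as it was. So did leaving out an array of the other stroke time.

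Of the 35 genes, 25 had an entry in the RefSeq promoter table (assembly GRCr8). The 250 bases before the annotated start are printed for 4 of them because they stand for the range of responses: Gabrd and its usual partner Gabra4, 2 of the deepest falls, Grin1, the subunit every NMDA receptor needs, and Grik5, whose change did not pass at either time. They are given 5′ to 3′ on the gene's strand, at chr5:171252710-171252959 (minus), chr14:36944497-36944746 (plus), chr3:28528755-28529004 (minus) and chr1:89794910-89795159 (minus). Capitals mark GGGCGG, the GC box, on either strand, and adjoining matches overlap.
Gabrd: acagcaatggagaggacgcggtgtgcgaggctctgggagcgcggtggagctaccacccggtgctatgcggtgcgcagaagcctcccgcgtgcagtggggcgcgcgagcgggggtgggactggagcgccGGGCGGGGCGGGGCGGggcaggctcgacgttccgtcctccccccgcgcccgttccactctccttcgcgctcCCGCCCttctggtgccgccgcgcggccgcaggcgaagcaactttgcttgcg
Gabra4: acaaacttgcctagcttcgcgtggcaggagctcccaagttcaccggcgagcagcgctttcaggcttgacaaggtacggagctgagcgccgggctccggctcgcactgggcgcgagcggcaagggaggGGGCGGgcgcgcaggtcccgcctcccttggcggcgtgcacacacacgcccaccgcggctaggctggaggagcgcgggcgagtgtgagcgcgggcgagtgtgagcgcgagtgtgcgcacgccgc
Grin1: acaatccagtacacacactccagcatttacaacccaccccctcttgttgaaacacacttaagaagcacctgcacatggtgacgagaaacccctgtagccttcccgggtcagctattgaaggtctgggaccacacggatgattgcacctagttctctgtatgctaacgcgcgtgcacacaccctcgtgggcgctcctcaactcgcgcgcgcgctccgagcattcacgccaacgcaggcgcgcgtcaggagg
Grik5: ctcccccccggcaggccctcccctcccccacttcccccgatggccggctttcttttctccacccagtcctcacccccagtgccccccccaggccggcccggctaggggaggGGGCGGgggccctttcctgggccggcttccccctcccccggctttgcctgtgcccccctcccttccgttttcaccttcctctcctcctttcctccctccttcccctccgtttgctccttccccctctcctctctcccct

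Both strands were searched for 3 motifs, none of which contains another: GGGCGG, TGACGTCA (the cAMP response element) and TATAAA (the TATA box). The window of Gabrd held 4 matches to GGGCGG, those of Gabra4 and Grik5 held 1 each, and that of Grin1 held 0. In all 9 of the 25 windows held GGGCGG, against 30.5% of 33469 promoter windows of the same length. They were 8 of the 16 genes with an entry that were lower at 3 d or 14 d (Gabbr1, Gabbr2, Gabra4, Gabra5, Gabrd, Gabrg3, Grik3 and Grm7) and 1 of the 9 others (Grik5). TATAAA was found in the window of Gabra3 alone, against 12.9% of all windows, and TGACGTCA in 0 of 25, against 1.59%. Median GC content was 59.6% in the 25 windows and 51.2% in all.

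AMPA receptors carry most fast excitatory transmission. Gria4, which encodes the subunit GluA4, had the deepest fall of the 4 AMPA genes. It was 10.06 and 9.98 on the young and aged naive arrays, 9.36 and 9.20 at 3 d and 9.46 and 9.13 at 14 d. All 4 stroke arrays lay at least 0.5 below both naive arrays. Gria4 fell by 0.74 ± 0.13 at 3 d and by 0.72 ± 0.13 at 14 d, with limma's adjusted p = 0.00584 and 0.00617, to a level 1.67-fold and 1.65-fold lower. Gria3 was 10.98 and 10.86 in naive tissue, 10.44 and 10.53 at 3 d and 10.44 and 10.57 at 14 d. It fell by 0.43 ± 0.13 and 0.41 ± 0.13, close to the threshold at both times (adjusted p = 0.0454 and 0.0495). Gria1, the subunit best known from activity-dependent insertion at synapses, lay between 10.449 and 11.002 and did not pass, at -0.40 ± 0.13 at either time (adjusted p = 0.0694 and 0.0631). Gria2, whose edited subunit keeps calcium out of the channel, had the smallest change of the family. It was 11.69 and 11.54 in naive tissue, 11.36 and 11.41 at 3 d and 11.36 and 11.33 at 14 d. The fitted changes were -0.23 (95% interval -0.52 to 0.05) and -0.27 (-0.56 to 0.01), so that a fall as large as that of Gria4 lies outside both intervals.

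Kainate receptors tune release and excitability, with Grik1, Grik2 and Grik3 encoding subunits that form channels by themselves and Grik4 and Grik5 high-affinity subunits that need a partner. The 5 genes had the smallest median change of the ionotropic families at 3 d, -0.18, and -0.37 at 14 d. Grik2 was 9.63 and 9.52 in naive tissue, 9.12 and 9.20 at 3 d and 9.19 and 9.17 at 14 d. It fell by 0.41 ± 0.12 and 0.40 ± 0.12, with an adjusted p just under the threshold at each time (0.0473 and 0.0499). Grik3 was lower at 14 d alone: it was 9.45 and 9.12 on the naive arrays, 9.22 and 9.01 at 3 d and 8.86 and 8.70 at 14 d. The 3 d arrays overlapped the naive ones and the 14 d arrays lay below all others. The change was -0.17 ± 0.12 at 3 d (adjusted p = 0.346) and Grik3 fell by 0.51 ± 0.12 at 14 d (adjusted p = 0.0211). Grik1 (-0.18 and -0.37), Grik4 (-0.23 and -0.26) and Grik5 (-0.13 and -0.28) did not pass at 3 d or at 14 d. Grik1 was the dimmest, between 6.93 and 7.60, Grik4 lay between 8.26 and 8.60, and Grik5 between 9.77 and 10.24 with naive and stroke arrays overlapping.

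NMDA receptors are tetramers that always hold the Grin1 subunit, which binds glycine, with Grin2 subunits that bind glutamate or Grin3 subunits that bind glycine. Grin1 was 10.86 and 10.70 in naive tissue, 10.32 and 10.24 at 3 d and 10.13 and 9.96 at 14 d, so each age was lower at 14 d than at 3 d. It fell by 0.50 ± 0.12 at 3 d and by 0.73 ± 0.12 at 14 d (adjusted p = 0.0216 and 0.00459), a 1.66-fold lower level at the later time. The step from 3 d to 14 d, -0.23, did not pass (adjusted p = 0.54). Grin2a, whose subunit dominates at mature synapses, was 10.56 and 10.28 in naive tissue, 10.12 and 9.98 at 3 d and 10.23 and 9.73 at 14 d. It changed by -0.37 ± 0.13 at 3 d without passing and fell by 0.44 ± 0.13 at 14 d (adjusted p = 0.0873 and 0.0483). Grin2b, whose subunit dominates in development and outside the synapse, did not pass, at -0.37 ± 0.12 and -0.33 ± 0.12 (adjusted p = 0.0636 and 0.0874). Grin2b lay between 10.29 and 10.88, and its lowest naive array was still above the highest stroke array. Grin2c (-0.23 and -0.27), Grin2d (-0.29 and -0.30) and Grin3a (-0.39 and -0.42) did not pass either. Grin3a differed most between the ages at 3 d: 7.78 and 7.82 in naive tissue, 7.67 in young and 7.16 in aged rats at 3 d, and 7.55 and 7.21 at 14 d.

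Taking the ionotropic glutamate genes together, Gria4 at 3 d was the only one of the 4 calls left without the aged 3 d, the young 3 d or the young naive array, and 0 of 4 were left without the aged naive array (adjusted p from 0.091 to 0.184). At 14 d 0 of 6 calls were left without the aged naive array (adjusted p from 0.0585 to 0.282) and only that of Gria4 without the young naive array (0.0506 to 0.307 for the others). Leaving out any 1 array of 3 d or 14 d ended those of Gria3 and Grik2, and all but the young 14 d array also that of Grin2a (0.0558 to 0.23).

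Metabotropic glutamate receptors fall into group I, which excites through phospholipase C (here Grm5), group II (Grm2 and Grm3) and group III (Grm4, Grm6, Grm7 and Grm8), which lower cyclic AMP and mostly restrain transmitter release. Grm4 had the deepest fall of the 7 genes. It was 9.15 and 8.90 on the young and aged naive arrays, 8.18 and 8.31 at 3 d and 8.26 and 8.11 at 14 d. The lowest naive array was above the highest stroke array by more than the naive arrays differed. Grm4 fell by 0.78 ± 0.14 at 3 d and by 0.84 ± 0.14 at 14 d (adjusted p = 0.00648 and 0.00474), to a level 1.71-fold and 1.79-fold lower. Grm7, a presynaptic receptor of low glutamate affinity, was 9.71 and 9.55 in naive tissue, 9.20 and 9.09 at 3 d and 9.16 and 8.99 at 14 d. It fell by 0.48 ± 0.12 and 0.56 ± 0.12 (adjusted p = 0.0244 and 0.0134), with nearly the same change in each age.

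Grm8 changed unequally in the 2 ages. It was 8.15 and 8.32 in naive tissue, 7.91 in young and 7.49 in aged rats at 3 d, and 7.72 and 7.24 at 14 d. The aged array went from the higher of the naive pair to the lower of each stroke pair. The fitted change was -0.54 ± 0.18 at 3 d (adjusted p = 0.0669), and Grm8 fell by 0.76 ± 0.18 at 14 d (adjusted p = 0.0191). Grm5 was 10.77 and 10.56 in naive tissue, 10.35 and 10 at 3 d and 10.51 and 10.03 at 14 d. It fell by 0.49 ± 0.13 at 3 d (adjusted p = 0.03), and its change of -0.40 ± 0.13 at 14 d did not pass (adjusted p = 0.0557). Grm3, which astrocytes express too, changed by -0.43 ± 0.15 and -0.41 ± 0.15 without passing (adjusted p = 0.0786 and 0.0796).

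Grm2 and Grm6 had the smallest changes of all tested receptor genes at 3 d, at -0.04 ± 0.13 and -0.10 ± 0.13. Grm2 was 8.69 in young and 8.30 in aged naive tissue, 8.51 and 8.40 at 3 d and 8.34 and 8.22 at 14 d, so that naive and stroke arrays overlapped. Grm6, known from retinal bipolar cells, lay between 6.44 and 6.82 on the 6 arrays, near the 40th percentile (6.49 to 6.62), so that its small changes say little. Of the 3 metabotropic calls at 3 d, that of Grm4 alone held without the aged 3 d or the aged naive array and 0 held without the young 3 d or the young naive array (adjusted p from 0.0776 to 0.278 where lost). At 14 d Grm4 alone held without the aged naive and Grm8 alone without the young naive array, and Grm8 was lost without the aged 14 d array (0.0586 to 0.204).

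GABA-A receptors were the family with the most called genes: 8 of 9 tested were lower at 3 d and 7 of 9 at 14 d, with medians of -0.67 and -0.61. Delta subunits (Gabrd) with alpha4 (Gabra4), and alpha5 subunits (Gabra5), form receptors outside the synapse that carry tonic inhibition. Gabrd was 9.23 and 8.97 on the young and aged naive arrays, 8.30 and 8.37 at 3 d and 8.27 and 7.93 at 14 d. Its 4 stroke arrays lay at least 0.5 below the lower naive array. Gabrd fell by 0.76 ± 0.14 at 3 d (adjusted p = 0.0079) and by 0.998 ± 0.14 at 14 d (adjusted p = 0.0025), the largest change of any receptor gene at that time. Its call at 14 d was the only one of all 34 calls in the 2 comparisons that held under each of the 13 settings, with adjusted p up to 0.0369.

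Gabra4 was 10.87 and 10.87 in naive tissue, 10.35 and 9.97 at 3 d and 10.27 and 9.86 at 14 d. The naive arrays were nearly equal and the aged stroke arrays were the lowest. Gabra4 fell by 0.71 ± 0.14 and 0.81 ± 0.14 (adjusted p = 0.0124 and 0.00697), to a level 1.64-fold and 1.75-fold lower. Gabra5 was 10.47 and 10.35 in naive tissue, 9.79 and 9.25 at 3 d and 10.25 and 9.35 at 14 d. The young array at 14 d was thus close to the naive pair while the aged one stayed about 1 below. Gabra5 fell by 0.89 ± 0.18 at 3 d (adjusted p = 0.013), the largest change of any receptor gene at that time, and by 0.61 ± 0.18 at 14 d (adjusted p = 0.0478). The later call ended under quantile normalization, with no filter, without the age term and without the aged 14 d or the aged naive array (adjusted p up to 0.427).

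**Figure D2:**
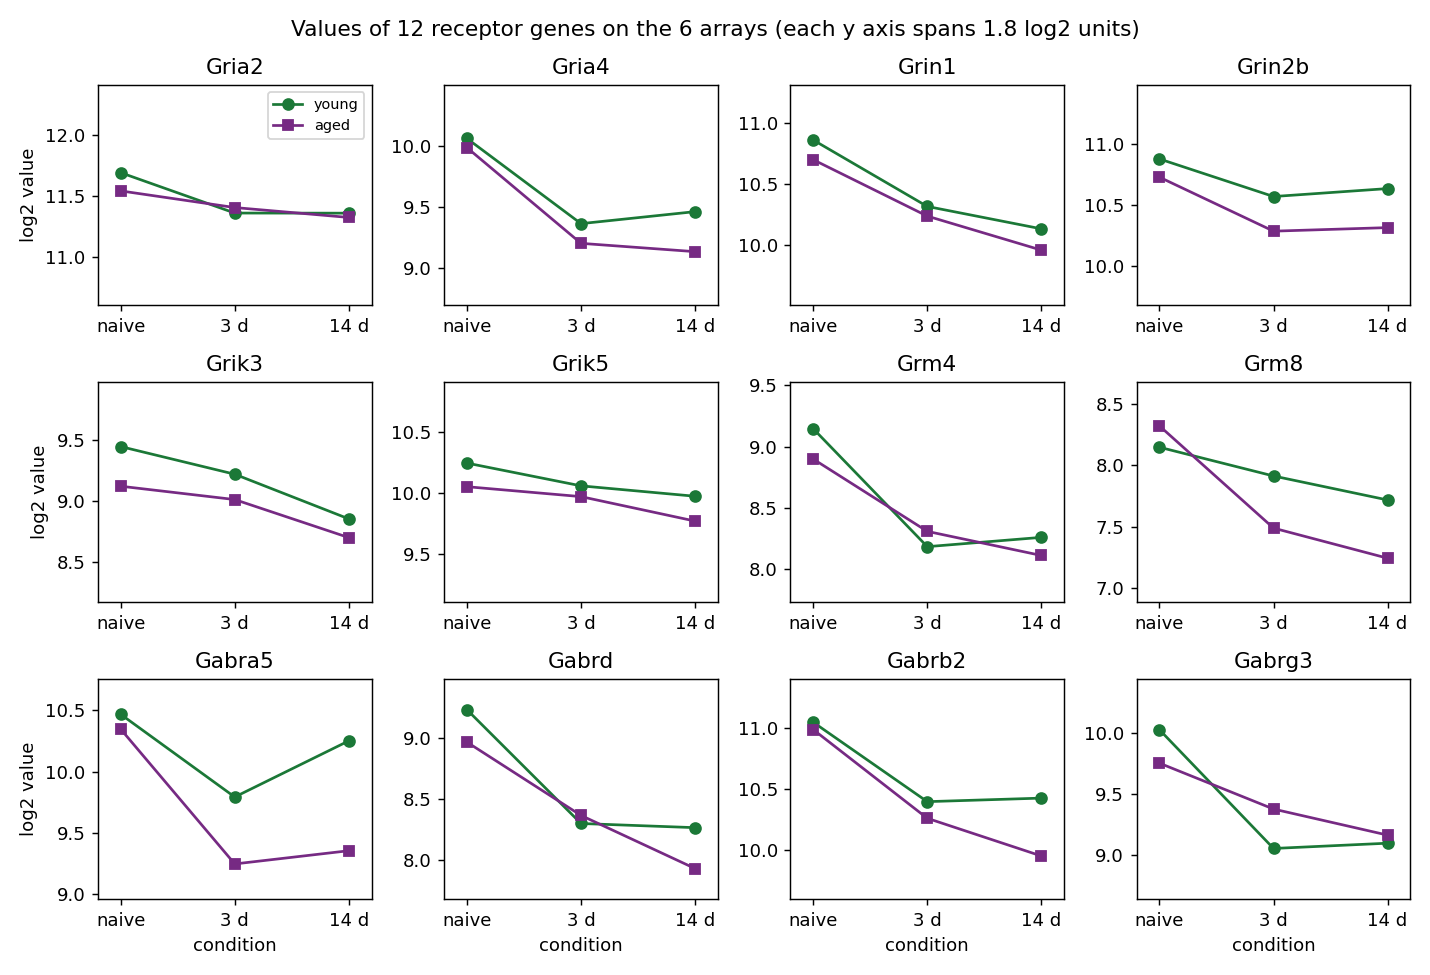
Log2 values (y axis, each spanning 1.8 units) of 12 receptor genes in naive tissue, at 3 d and at 14 d (x axis), for young (circles) and aged rats (squares), with 1 array per point and no error bars. Gria4, Grm4, Gabrd and Gabrb2 are lower on all 4 stroke arrays, Gria2 and Grik5 change little, and Gabra5 and Grm8 separate by age after stroke.

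Among the subunits of synaptic receptors, Gabrb2 was 11.05 and 10.99 in naive tissue, 10.40 and 10.26 at 3 d and 10.43 and 9.95 at 14 d. It fell by 0.69 ± 0.14 and 0.83 ± 0.14 (adjusted p = 0.0129 and 0.00583), with the aged 14 d array lowest. Its paralog Gabrb1 did not pass, at -0.40 ± 0.16 and -0.29 ± 0.16 (adjusted p = 0.118 and 0.233). In Gabrb1 the young arrays hardly moved (10.14 naive, 9.99 at 3 d and 10.14 at 14 d), whereas the aged ones were 10.29, 9.64 and 9.71. Gabra2 and Gabra3, alpha subunits that bind benzodiazepines, were lower at both times with close agreement between the ages. Gabra2 was 10.80 and 10.77 in naive tissue, 10.42 and 10.29 at 3 d and 10.31 and 10.28 at 14 d. It fell by 0.43 ± 0.12 and 0.49 ± 0.12 (adjusted p = 0.0391 and 0.0216). Gabra3 was 11.14 on both naive arrays, 10.68 and 10.57 at 3 d and 10.64 and 10.63 at 14 d, and it fell by 0.52 ± 0.12 and 0.50 ± 0.12 (adjusted p = 0.0195 and 0.02).

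The gamma subunits link GABA-A receptors to synaptic scaffolds and set their drug sensitivity. Gabrg3 was 10.03 and 9.75 in naive tissue, 9.06 in young and 9.38 in aged rats at 3 d, and 9.10 and 9.17 at 14 d. Here the young array was the lower of the 3 d pair, opposite to Gabra5. Gabrg3 fell by 0.67 ± 0.16 and 0.76 ± 0.16 (adjusted p = 0.0223 and 0.0134). Gabrg1 was 9.99 and 10.21 in naive tissue, 9.53 and 9.45 at 3 d and 9.86 and 9.62 at 14 d. It fell by 0.61 ± 0.14 at 3 d (adjusted p = 0.0224), and its change of -0.36 ± 0.14 at 14 d did not pass (adjusted p = 0.108).

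Several GABA-A genes lie side by side in the rat genome, which the choice by symbol did not use. In the RefSeq gene order of GRCr8, Gabrb1, Gabra4, Gabra2 and Gabrg1 follow each other on chromosome 14 with 1 other protein-coding gene, Cox7b2, among them. Their changes at 3 d were -0.40, -0.71, -0.43 and -0.61, and at 14 d -0.29, -0.81, -0.49 and -0.36, so neighbours differed in size and Gabrb1 passed at neither time. Gabrg3 and Gabra5 adjoin on chromosome 1, at -0.67 and -0.89 at 3 d and -0.76 and -0.61 at 14 d. Gabrb2 adjoins Gabra6 on chromosome 10, the first lower at both times and the second below the filter.

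GABA-B receptors pair Gabbr1, which binds GABA, with Gabbr2, which couples to the G protein. Gabbr2 was 11.12 and 11.08 in naive tissue, 10.73 and 10.56 at 3 d and 10.54 and 10.41 at 14 d, with each age lower at the later time. It fell by 0.45 ± 0.12 and 0.62 ± 0.12 (adjusted p = 0.0337 and 0.00905). Gabbr1 was 11.84 and 11.83 in naive tissue, 11.53 and 11.40 at 3 d and 11.57 and 11.23 at 14 d. It changed by -0.37 ± 0.13 at 3 d without passing (adjusted p = 0.0834) and fell by 0.44 ± 0.13 at 14 d (adjusted p = 0.0474).

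The calls of the GABA receptor genes leaned on the naive arrays as well, and those at 3 d also on the 3 d arrays. Of the 8 GABA-A calls at 3 d, that of Gabrg3 was left without the aged naive array (adjusted p from 0.0673 to 0.266 for the others), 3 without the young naive (0.0511 to 0.19), 2 without the young 3 d (0.0895 to 0.221) and 4 without the aged 3 d array (0.0719 to 0.233). At 14 d Gabrd and Gabrg3 were left of 7 without the aged naive array (0.0927 to 0.427), and Gabra4, Gabra5, Gabrb2 and Gabrd without the young naive array (0.103 to 0.123). All 3 GABA-B calls ended without either naive array (0.0563 to 0.361), that of Gabbr2 at 3 d also without either 3 d array (0.163 and 0.199), and that of Gabbr1 also without either 3 d or the aged 14 d array (0.063 to 0.223).

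**Figure D3:**
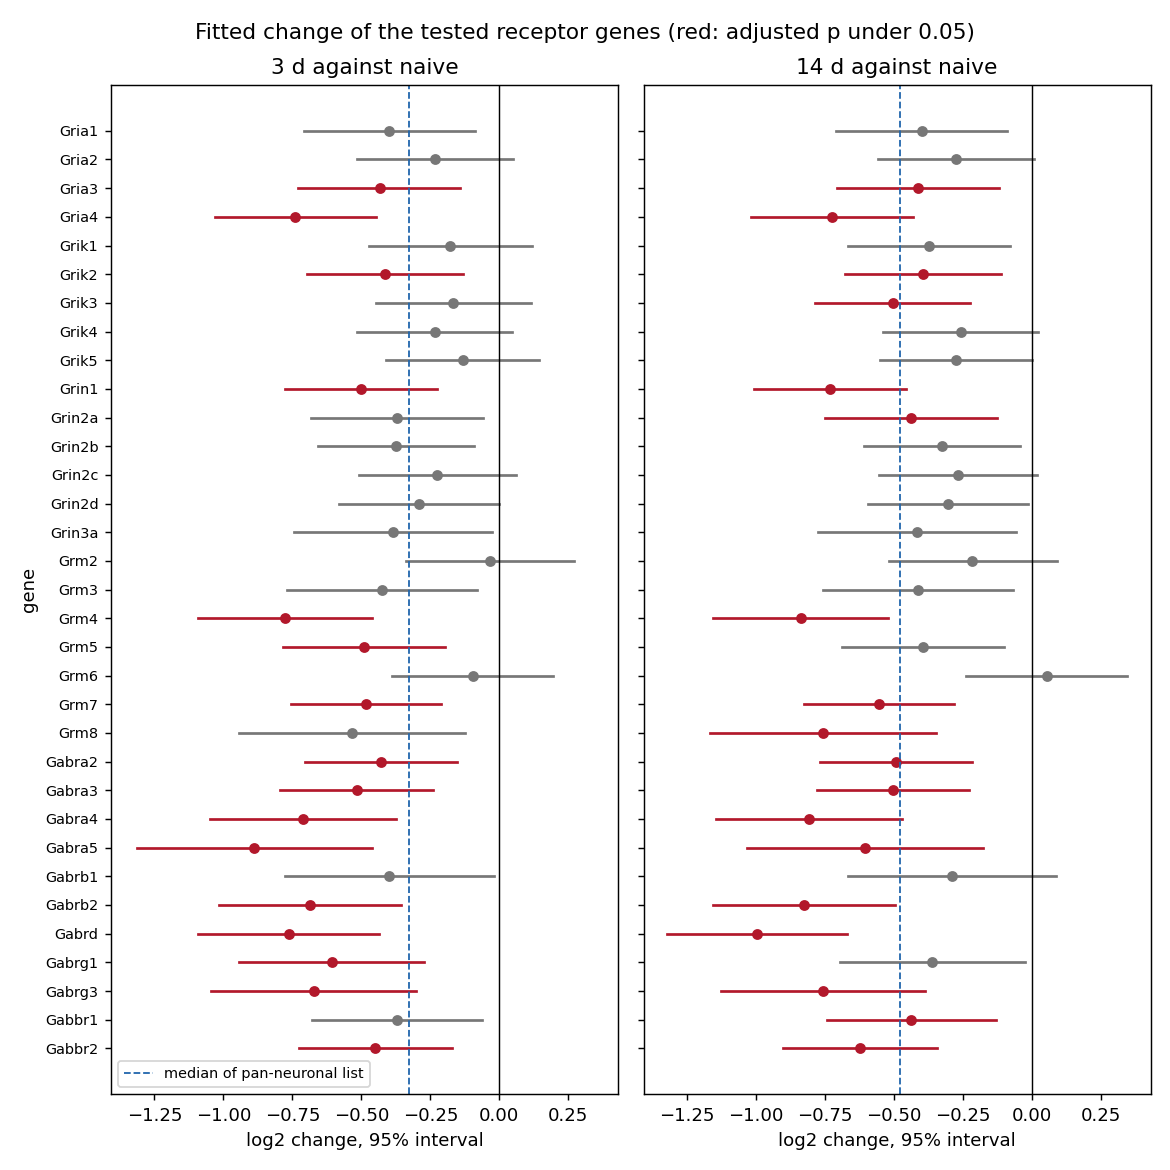
Fitted log2 change from naive (x axis; points, with 95% intervals as bars) of the 33 tested receptor genes (y axis) at 3 d (left) and 14 d (right), red where the adjusted p was under 0.05, with the median of the pan-neuronal list as a dashed line. Red points number 16 and 18, and 24 points lie left of the dashed line at 3 d against 14 at 14 d.

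Markers of other cells and regions differed between the same arrays, and their part in the receptor changes was not tested. Of 18 pan-neuronal genes 4 were lower at 3 d and 12 at 14 d, with 0 higher and medians of -0.33 and -0.48. Their summed level, as the log2 of the summed unlogged values, was 15.58 and 15.61 on the naive arrays, 15.27 on both 3 d arrays and 15.13 and 15.14 at 14 d. Against the pan-neuronal median, 24 of the 33 receptor genes had a more negative change at 3 d and 14 of 33 at 14 d. Gabra5 differed from it by -0.56 at 3 d and Gabrd by -0.52 at 14 d, whereas Grik5 differed by 0.19 and Gria2 by 0.09 at 3 d. All 14 genes of microglia and macrophages were higher at both times (medians 2.09 and 2.30), with a summed level of 12.25 to 12.62 in naive tissue and 14.14 to 14.79 after stroke. Among them, Cd14 reached the 40th percentile on the 4 stroke arrays alone and was thus tested only through arrays where it was high. Cd68 and Ptprc were below it on the young naive array. The size of the changes of these genes is uncertain.

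Of 13 genes of striatal projection neurons 12 were lower at each time (medians -1.11 and -0.98), and their summed level was 14.17 in young and 13.71 in aged naive tissue against 12.82 to 13.28 after stroke. Of 6 thalamic genes 4 were lower at each time (medians -1.32 and -1.38), with a summed level of 10.68 and 11.43 in naive tissue and 10.29 to 10.76 after stroke. Among these 4, Slc17a6 and Calb2 reached the 40th percentile on 3 of the 6 arrays, and Shox2 on the aged naive array alone. Shox2 was thus tested only through an array where it was high, and the size of these falls and of the medians is uncertain. Of 6 genes of cortical projection neurons 1 was lower at 3 d and 2 at 14 d (medians -0.26 and -0.38). Naive and peri-infarct tissue thus differed in most of these striatal and thalamic markers. Whether this came from the region sampled or from loss of such cells was not tested. Of 9 cerebellar genes 1 was higher and 0 lower at 3 d, and 2 were higher and 1 lower at 14 d. Of 8 hippocampal genes 0 were higher and 1 lower at 3 d, and 1 was higher and 2 lower at 14 d. Among 11 astrocyte genes 2 were higher and 1 lower at 3 d and 4 were higher at 14 d, among 10 genes of oligodendrocyte precursors 2 and then 4 were higher, and among 12 of endothelium and pericytes 6 were higher at each time.

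**Figure D4:**
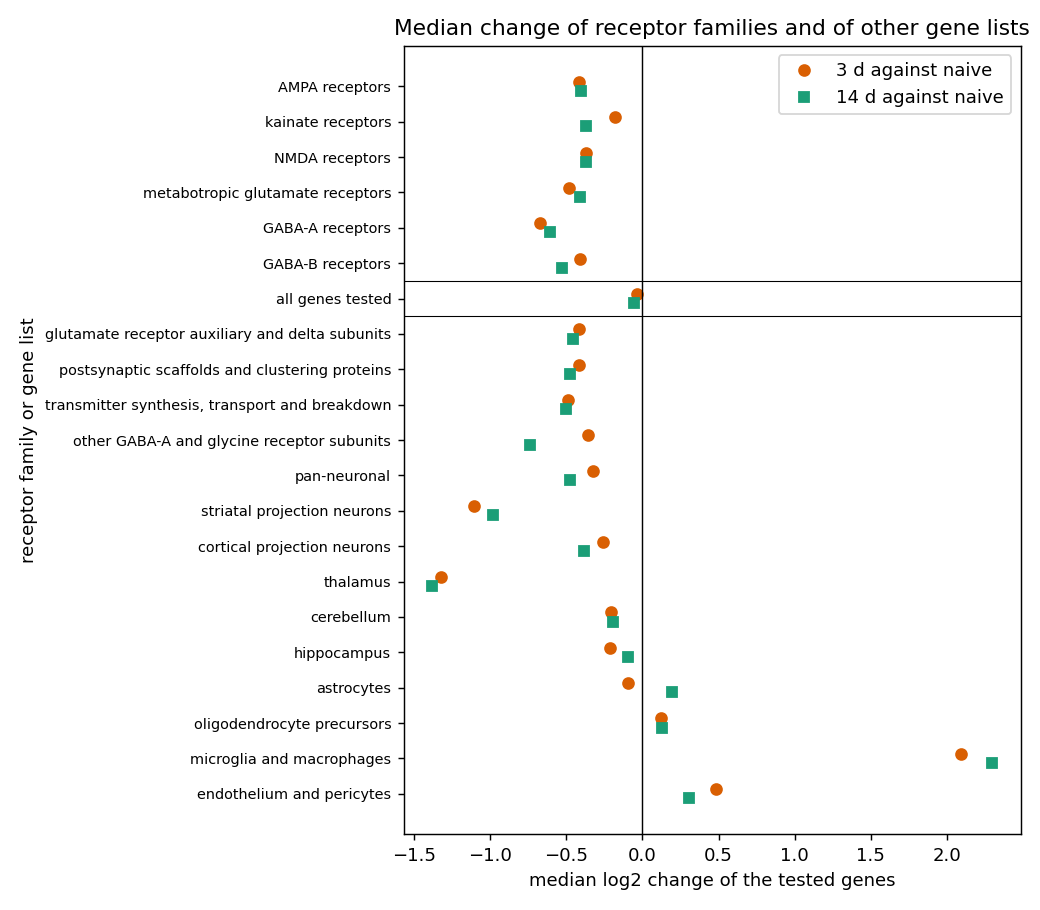
Median log2 change from naive (x axis) of the tested genes of each receptor family, of all tested genes and of each other gene list (y axis), at 3 d (circles) and 14 d (squares), 1 point per set with no error bars. The receptor medians lie between -0.67 and -0.18, with GABA-A receptors lowest at both times. The medians of the pan-neuronal and scaffold lists fall inside that range. The receptor medians lie between those of the regional lists of striatum and thalamus and those of glia.

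Some genes that work with these receptors were lower too. Of 16 auxiliary and delta subunits and pentraxins of glutamate receptors, 6 were lower at 3 d and 8 at 14 d, with 0 higher and medians of -0.41 and -0.46. At 3 d they were led by Cacng2 (stargazin, which carries AMPA receptors to the synapse, -0.76 ± 0.20), the kainate receptor partners Neto2 (-0.61 ± 0.14) and Neto1 (-0.51 ± 0.14), and Shisa7 (-0.54 ± 0.15). At 14 d the leaders were Cacng2 (-0.88 ± 0.20), Nptx2, a secreted pentraxin that gathers AMPA receptors (-0.76 ± 0.15), Cacng7 (-0.66 ± 0.13) and Olfm2 (-0.57 ± 0.14). Nptx2 differed between the times: its change was 0.08 ± 0.15 at 3 d and it was lower by -0.84 at 14 d than at 3 d (adjusted p = 0.0262).

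Of 27 postsynaptic scaffold and clustering genes 12 were lower at 3 d and 15 at 14 d, with medians of -0.42 and -0.48. The deepest falls at 3 d were those of Dlgap3 (a scaffold known from the striatum, -0.84 ± 0.13), Kctd8 (a GABA-B receptor auxiliary subunit, -0.67 ± 0.15), Shank3 (-0.61 ± 0.12) and Homer1 (which ties Grm5 to the scaffold, -0.59 ± 0.13). At 14 d the same 4 genes led, at -0.90, -0.59, -0.69 and -0.58. In the same list Gphn (gephyrin), which anchors GABA-A and glycine receptors, fell by 0.52 ± 0.12 and 0.50 ± 0.12, and was named after its values were seen.

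Of 14 genes of transmitter synthesis, transport and breakdown 7 were lower at 3 d, and 8 were lower and 1 higher at 14 d. At 3 d the falls were led by Slc17a6 (a vesicular glutamate transporter, -2.03 ± 0.24), Slc6a11 (the astrocytic GABA transporter GAT-3, -1.001 ± 0.17), Abat (GABA transaminase, which breaks GABA down, -0.81 ± 0.12) and Slc17a8 (-0.66 ± 0.15). Slc17a6 and Slc17a8 reached the 40th percentile on 3 of the 6 arrays, so the size of their falls is uncertain. At 14 d Slc6a11 (-0.91 ± 0.17) and Slc32a1 (the vesicular GABA transporter, -0.85 ± 0.14) were lower, as was Slc17a6 (-1.83 ± 0.24), and Slc6a13, a GABA transporter known from the meninges, was higher (1.88 ± 0.21). Of 5 tested genes for other GABA-A and glycine receptor subunits 2 were lower at 3 d and 3 at 14 d. Glra2 (-1.04 ± 0.18 and -0.80 ± 0.18) and Glrb (-0.53 ± 0.15 and -0.74 ± 0.15) passed at both times, and Glra1 (-1.03 ± 0.21), which reached the 40th percentile on 2 arrays, at 14 d.

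Between 3 d and 14 d no receptor gene passed. With limma 0 of 33 differed, where 3.16% of all tested genes did (1.34% higher and 1.82% lower at 14 d), and 1 had an unadjusted p under the same threshold, Grik3 (-0.34, adjusted p = 0.288). Over all tested genes 1281 of 10947 had an unadjusted p that low. The median difference was -0.04 and its sign was negative for 22 of 33, close to the median of -0.03 and the 6304 of 10947 negative signs over all tested genes. The 95% intervals were wide beside these changes: for Gabra5 the difference was 0.28 (-0.14 to 0.71), for Gabrg1 0.25 (-0.09 to 0.58), for Gabrd -0.23 (-0.56 to 0.09) and for Gria4 0.02 (-0.28 to 0.31). A partial return or a further fall of that size was not detectable with these arrays.

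Aged and young rats were compared over the 3 conditions, with 3 arrays per age. With limma 0 of 33 receptor genes differed, as did 0% of all 10947 tested genes, and 4 of the 33 had an unadjusted p under the threshold: Gabra5 (-0.52), Grm5 (-0.35), Grin2a (-0.31) and Grin2b (-0.25), each with adjusted p = 0.631. Over all tested genes 852 had an unadjusted p that low. The fitted age difference was negative (lower in aged rats) for 27 of the 33 genes, with a median of -0.16. Over all tested genes it was negative for 6028 of 10947, with a median of -0.02. In naive tissue the aged array was the lower for 23 of 33 receptor genes and 51.1% of all tested genes, with a median difference of -0.07 for the receptor genes, from -0.40 for Grm2 to 0.25 for Grin2d. At 3 d it was the lower for 23 and for 62.4% of all tested genes, with a receptor median of -0.11, from -0.55 for Gabra5 to 0.32 for Gabrg3. At 14 d it was the lower for 29 and for 47.9% of all tested genes, with a receptor median of -0.20, from -0.90 for Gabra5 to 0.35 for Grik1. Over all tested genes the medians were -0.004, -0.06 and 0.02.

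Whether the response itself differed by age could not be tested with 1 array per group, and the values are given as measured. From naive to 14 d the change was more negative in aged than in young rats for 24 of 33 genes, and it was so for 48.1% of all tested genes. From naive to 3 d the figures were 19 of 33 and 58.9%. The ages differed by at least 0.5 for 3 genes at each time, against 6.54% of all tested genes at 3 d and 14.1% at 14 d. At 3 d these were Gabrg3 (-0.97 in young and -0.38 in aged rats), Grin3a (-0.11 and -0.66) and Grm8 (-0.24 and -0.84). At 14 d they were Gabra5 (-0.22 and -0.99), Gabrb1 (-0.01 and -0.57) and Grm8 (-0.43 and -1.08). Gabrg3 was thus the only one of them with the larger change in young rats.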

How the data were processed

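The values deposited by the authors, 1 for each probe set on an array, were taken as log2, although the labels do not state a base. The tools listed, per the submitters' processing notes, are R 2.14.0 and affy, with no step named. For background correction, normalization and build the method is not given in the sources used here. Arrays share nearly equal medians, and a common scale removes any overall change in RNA content. Scan date and batch were not used here.

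The platform annotation gave a single symbol to 15209 of 28826 probe sets. Those at or above the 40th percentile on 1 or more arrays were kept (11513), and the highest mean stood for a gene (10947 genes). An additive model of age and condition over all 6 arrays was fitted with limma 3.58.1 (R 4.3.3) with 2 residual degrees of freedom (prior 5.56) and Benjamini-Hochberg adjustment over all genes at 0.05. An age difference of the response enters the error. The code was tested on simulated data. Receptor genes and lists were chosen with earlier results of these data known, so the lower level of neuronal genes is no independent support. Values on all arrays are given for called genes and those whose ages differed by 0.5, and up to 4 called genes per list by size. Intervals are at 95%. Promoters were matched by gene ID and are a description. Alternatives were other scalings, filters, variances and models, and leaving out each array.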

Additional observations from a re-analysis of the deposited data

Results flagged for a closer look

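Grm3 had changes of opposite sign from 3 d to 14 d: it was higher by 0.24 in young rats and lower in aged rats (-0.215), a difference of -0.455 (aged minus young). The log2 values were 10.35 and 10.29 at 3 d and 10.59 and 10.07 at 14 d. It was singled out because both changes were at least 0.2 in size, and the difference was not tested.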

How the results depend on the processing

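The direction of all 34 receptor calls (16 at 3 d and 18 at 14 d) held under the 13 settings. It could change only with another scaling or without an array of the 2 conditions compared, because the other settings leave the fitted change as it was. Without single arrays the count of lower genes ranged from 2 to 23 at 3 d and from 3 to 20 at 14 d, with 0 higher. At 3 d the calls over all tested genes moved with that count. Other scalings, filters, variances and models gave 12 to 23 lower receptor genes at 3 d and 13 to 24 at 14 d. No filter ended 4 and 5 calls, quantile normalization 0 and 4, and leaving age out of the model, which drops the comparison of arrays within an age, 2 and 4. The 14 d against 3 d and the age comparison had 0 receptor calls in every setting run. Median centring moved the median of all tested genes at 14 d from -0.06 to -0.11, and every family median at 3 d and 14 d stayed negative with each scaling. Age, as a term of the model, already pairs stroke and naive arrays. Pairing by replicate number was not possible because each group had 1 array and the labels carry no such numbers. With 6 arrays of pooled RNA the spread between animals is not seen, and dim genes such as Grm6 have little precision.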
